A study of Mus musculus with 7 samples.

Results

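The genes described here are targets and partners of the stress-response transcription factor ATF4, together with the cytosolic aminoacyl-tRNA synthetases, in lung CD11b+ conventional dendritic cells (cDC2s). A list of 30 genes was matched by name to the array annotation (each synthetase also with the suffix 1), probesets with 1 gene symbol were kept, and the brightest probeset over the 7 arrays stood for each gene. This gave 29 measured members of 19938 genes in all, 12 of them synthetases and 17 other members. The 30th, the alanyl-tRNA synthetase gene Aars, had a probeset only in common with Exosc6 and was left out of all counts. Matching used gene names and no measured value, but the list was drawn up with earlier results of these data known.

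Each array held RNA from 1 pool of cDC2s, sorted from 10 female C57Bl/6 mice as CD11c+ MHC-II+ cells with CD11b and without Ly6C and CD64. Of the 7 pools, 3 came from Irf3-deficient mice that had received 100 µg of house dust mite (HDM) extract, 2 from wild type mice that had received the same dose, and 2 from wild type mice given PBS. All cells were isolated 12 hours after treatment. The labels name neither the Irf3 allele nor the age of the mice. How close members lie to Irf3 on the chromosome was not examined, and an effect of DNA linked to the allele was not tested. Irf3-deficient mice given PBS were not analysed here, so a difference between the genotypes that exists before treatment cannot be told apart from one that follows it.

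The integrated stress response starts when a kinase such as PERK (Eif2ak3), which senses misfolded protein in the endoplasmic reticulum, or GCN2 (Eif2ak4), which senses uncharged tRNA, phosphorylates the translation factor eIF2 on its alpha subunit. General translation then slows, while ATF4 is translated more and switches on genes for amino acid synthesis, amino acid uptake and tRNA charging, and also CHOP (Ddit3) and the phosphatase subunit GADD34 (Ppp1r15a), which restarts translation. ATF4 is set largely by translation, so its mRNA level is not a readout of its activity. In dendritic cells this pathway is known to be engaged by microbial stimuli and by amino acid shortage.

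The values are log2 expression levels, so a difference of 1 is a 2-fold change. All 7 arrays were fitted together in limma with 1 mean per group, and a gene "rose", "fell" or "differed" only where its p-value, adjusted over all 19938 genes by the Benjamini-Hochberg method, was below 0.05. Every adjusted p below is from that fit, and differences carry the fit's standard error (SE). Irf3 itself lay at 8.13 to 8.30 in the Irf3-deficient arrays, against 9.57 and 9.59 in HDM-treated wild type arrays and 9.48 and 9.56 in PBS-treated wild type arrays. All 10 measured cDC2 markers, among them Itgax and H2-Ab1, had mean levels at or above the 77.0th percentile of all genes, while the neutrophil, T and NK cell, and B cell and plasmacytoid markers did not exceed the 45.6th. Of the 10 cDC2 markers, 3 were higher (30%, against 10.7% of all genes) and 1 lower (10%, against 9%) between the treated genotypes. With HDM in wild type 2 rose (20%, against 8.35%) and 2 fell (20%, against 9.23%). Itgam, which encodes CD11b, was at 11.74, 11.81 and 11.64 in Irf3-deficient arrays. Its levels were 10.92 and 11.10 in HDM-treated wild type and 12.11 and 12.02 in PBS-treated wild type. Macrophage and monocyte markers, which the CD64- gate should leave out, moved with the groups. Their mean over 10 genes ranged over 10.82 to 10.97 in Irf3-deficient arrays, over 10.09 to 10.56 in HDM-treated wild type arrays and over 11.35 to 11.65 in PBS-treated wild type arrays. The dimmest of the 10, Cd163, lay at the 57.0th percentile. The epithelial gene Sftpc lay at the 98.0th, at 11.88 to 12.03 in Irf3-deficient arrays, 12.60 and 12.42 in HDM-treated wild type arrays and 13.10 and 13.09 in PBS-treated wild type arrays. Within the 5 epithelial and endothelial markers directions differed between the treated genotypes, with Sftpc lower (-0.53), Epcam higher (1.78) and the others not passing. The part of such cells in the results below was not tested, and in sorted pools fewer cells of a type and less RNA per cell cannot be told apart.

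Among the members, 3 of 6 amino acid and one-carbon enzymes, 5 of 12 synthetases and the kinase gene Eif2ak3 were higher in treated Irf3-deficient than in treated wild type cells, while Ddit3, Ppp1r15a, Sesn2 and the tryptophanyl-tRNA synthetase gene Wars were lower. Of 29 members 9 were higher (31%), where 10.7% of all genes were, and 4 were lower (13.8%), where 9% of all genes were. In either direction 19.7% of all genes were called, and 43.7% had groups that did not overlap, as did 20 of the 29 members. The median difference of the members was 0.13, beside 0.00219 for all genes. In wild type cells, HDM raised 5 members (17.2%, against 8.35% of all genes) and lowered 4 (13.8%, against 9.23%), with a median of -0.11 beside 0.03. There 17.6% of all genes were called in either direction, and groups did not overlap for 20 of the 29 members and for 52.6% of all genes. Treated Irf3-deficient against PBS-treated wild type cells had 6 members higher (20.7%, against 5.89%) and 1 lower (3.45%, against 4.91%), with a median of 0.15 beside 0.04. There 10.8% of all genes were called in either direction, and groups did not overlap for 19 of the 29 members and for 39.1% of all genes. Over the 3 groups together, limma's F test called 16 of the 29 members, where it called 25.5% of all genes. The comparisons share arrays, so their counts are not independent of each other.

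These counts depended on single arrays. Without replicate 2 of HDM-treated wild type, 8 members differed between the treated genotypes, 7 higher and 1 lower, and 7 of the 8 were among the 13 called with all arrays; 12.8% of all genes were then called. Against PBS-treated wild type, the 7 called members (24.1%, against 10.8% of all genes) became 1 without replicate 1 of PBS-treated wild type (3.45%, against 3.76%) and 3 without replicate 2 of that group (10.3%, against 7.54%). That count was also 3 without replicate 2 of the Irf3-deficient group (10.3%, against 6.91%) and 4 without its replicate 3 (13.8%, against 7.26%), and Asns was called in each of these cases.

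**Figure D1:**
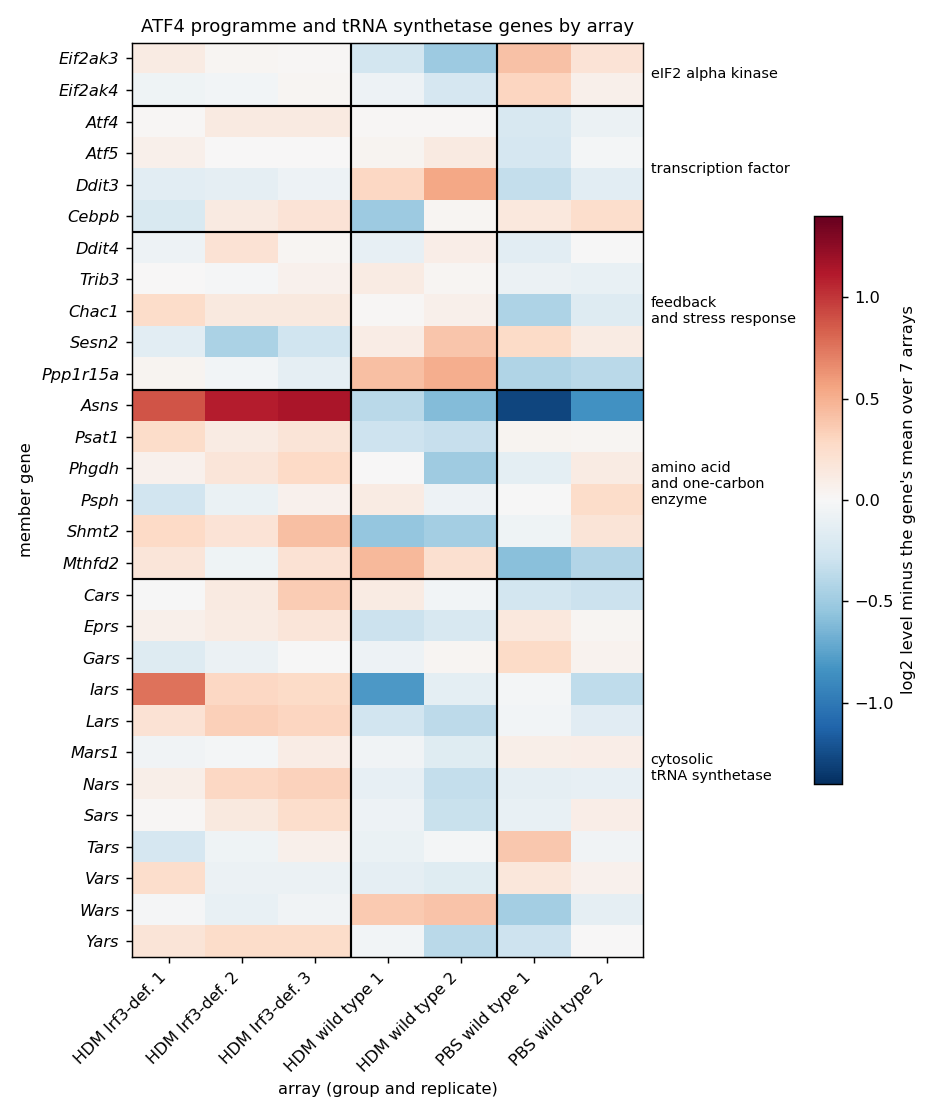
Log2 level of each of the 29 members (rows, grouped by role) in each of the 7 arrays (columns), shown as the difference from that gene's mean over the arrays. Red is above and blue below the gene's mean, and Asns has the widest range, with its 3 Irf3-deficient arrays at 10.10 to 10.36 and its PBS-treated wild type arrays at 7.93 and 8.37.

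Neither kinase member rose with HDM. Eif2ak3, which encodes PERK, fell after HDM in wild type cells and was higher in treated Irf3-deficient than in treated wild type cells. Its log2 level was 9.44, 9.34 and 9.34 in Irf3-deficient arrays, 9.06 and 8.81 in HDM-treated wild type and 9.73 and 9.51 in PBS-treated wild type. The 3 groups did not overlap, with the treated wild type arrays lowest. Between Irf3-deficient and PBS-treated wild type cells the difference, -0.25, did not pass (adjusted p = 0.233). HDM lowered it in wild type by a log2 change of -0.69 ± 0.13 (SE, adjusted p = 0.00239), and the genotypes differed by 0.44 ± 0.12 (adjusted p = 0.0191), a call that ended without replicate 2 of HDM-treated wild type (adjusted p = 0.211). Eif2ak4, the gene of GCN2, did not pass in any comparison, at 0.13 between the treated genotypes (95% CI -0.11 to 0.38) and -0.34 for HDM in wild type (95% CI -0.61 to -0.07, adjusted p = 0.0831).

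The remaining kinases and the eIF2 machinery came from a companion list of 13 genes, 12 of them measured. Eif2ak2, which encodes the double-stranded RNA sensor PKR, is an interferon-induced kinase. It lay at 9.17 to 9.52 in Irf3-deficient arrays, against 10.98 and 11.10 in HDM-treated wild type and 9.07 and 8.53 in PBS-treated wild type. HDM raised it in wild type by 2.25 ± 0.17 (adjusted p = 1.76e-06), and it was lower in Irf3-deficient cells by a difference of -1.64 ± 0.16 (adjusted p = 1.45e-05). It was still above PBS-treated wild type there, by 0.60 ± 0.16 (adjusted p = 0.0293). All 13 measured genes of an interferon-stimulated panel also rose after HDM in wild type (100%, against 8.35% of all genes). All 13 were lower in treated Irf3-deficient than in treated wild type cells (100%, against 9%). The genes with the smallest p were Mx2, at 3.66 and -2.74, and Oasl1, at 4.15 and -2.64, while differences in the panel reached 4.63 (Rsad2) and -3.18 (Ifit2). Against PBS-treated wild type, 12 of the 13 were still higher in Irf3-deficient cells (92.3%, against 5.89%). Between the treated genotypes, 2 genes of the eIF2 list were higher (16.7%, against 10.7% of all genes) and 3 lower (25%, against 9%). The eIF2 gamma subunit gene Eif2s3x differed by 0.81 and Eif2b3, a subunit of the exchange factor that reloads eIF2, by 0.78. Ppp1r15b, which encodes the constitutive counterpart of GADD34, differed by -0.45 and the eIF2 beta subunit gene Eif2s2 by -0.41. After HDM in wild type, 3 genes rose (25%, against 8.35% of all genes) and 2 fell (16.7%, against 9.23%). Nck1, an adaptor linked to eIF2 dephosphorylation, was at 0.70 and the haem-regulated kinase gene Eif2ak1 at -0.43. Against PBS-treated wild type, 5 genes were higher in Irf3-deficient cells (41.7%, against 5.89% of all genes) and 0 lower (against 4.91%). Among the 5 was Impact, whose product inhibits GCN2, at 0.48. Of the list, 5 genes had an unadjusted p under 0.05 in limma there.

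Of the 4 transcription factors Ddit3 alone passed, higher after HDM in wild type and lower in treated Irf3-deficient cells. Atf4 lay at 9.88, 9.99 and 9.99 in Irf3-deficient arrays, 9.88 and 9.88 in HDM-treated wild type and 9.64 and 9.78 in PBS-treated wild type. No comparison of it passed, and between the treated genotypes its 95% CI ran from -0.15 to 0.29. Ddit3, which encodes CHOP, a factor that promotes death under prolonged stress, had levels of 8.53, 8.56 and 8.62 in Irf3-deficient arrays, against 8.98 and 9.22 in HDM-treated wild type and 8.36 and 8.54 in PBS-treated wild type. The treated wild type arrays stood above all the others, and the Irf3-deficient and PBS-treated arrays overlapped. HDM raised Ddit3 1.57-fold in wild type (95% CI 1.30 to 1.90, adjusted p = 0.0026), and it was 1.45-fold lower in Irf3-deficient cells (1.22 to 1.72, adjusted p = 0.00498). The second call ended without replicate 2 of HDM-treated wild type (-0.41, adjusted p = 0.0796). Ddit3 and the methionyl-tRNA synthetase gene Mars1 overlap at their ends in RefSeq's annotation; the probes' positions were not used here. Atf5, a relative of ATF4, and Cebpb, a C/EBP factor that pairs with ATF4 on DNA, did not pass in any comparison. Cebpb was at 9.17 to 9.58 in Irf3-deficient arrays, 8.88 and 9.42 in HDM-treated wild type and 9.53 and 9.63 in PBS-treated wild type, and its treated wild type pair had an SD of 0.384. Without replicate 2 of that group Cebpb passed in wild type (-0.71, adjusted p = 0.0185) and between the treated genotypes (0.55, adjusted p = 0.0479).

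Of the 5 feedback and stress-response genes, Ppp1r15a was the 1 that rose with HDM in wild type. GADD34, its product, directs phosphatase to eIF2 and so ends the translation block. Its log2 level was 11.38, 11.31 and 11.22 in Irf3-deficient arrays, 11.77 and 11.86 in HDM-treated wild type and 10.93 and 10.97 in PBS-treated wild type. The groups did not overlap, and the Irf3-deficient arrays lay between the wild type groups. It rose 1.82-fold with HDM in wild type (95% CI 1.56 to 2.12, adjusted p = 7.71e-05), was 1.42-fold lower in Irf3-deficient cells (1.23 to 1.64, adjusted p = 0.00202), and was 1.28-fold above PBS-treated wild type there (1.11 to 1.47, adjusted p = 0.0302). The last of these calls held in 9 of 16 alternatives and ended, among others, with each array centred on its median and with quantile normalisation. How close Ppp1r15a lies to Irf3 was not examined, and an effect on it of DNA linked to the Irf3 allele was not tested.

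Sesn2 encodes sestrin 2, which restrains mTORC1 when leucine is short. It lay at 10.33, 10.04 and 10.19 in Irf3-deficient arrays, against 10.58 and 10.86 in HDM-treated wild type and 10.74 and 10.60 in PBS-treated wild type. The Irf3-deficient arrays were below all 4 wild type arrays, and the wild type groups overlapped. Sesn2 had a log2 difference of -0.54 ± 0.12 between treated Irf3-deficient and treated wild type cells (adjusted p = 0.00782; adjusted p = 0.104 without replicate 2 of HDM-treated wild type) and by -0.48 ± 0.12 from PBS-treated wild type (adjusted p = 0.0252, called in 11 of 16 alternatives). HDM in wild type left it at 0.05 (95% CI -0.24 to 0.35). Chac1, which encodes an enzyme that degrades glutathione, was higher in Irf3-deficient than in PBS-treated wild type cells by 0.48 ± 0.11 (adjusted p = 0.0146). Its levels were 8.80, 8.69 and 8.68 in Irf3-deficient arrays, 8.57 and 8.62 in HDM-treated wild type and 8.11 and 8.36 in PBS-treated wild type, and the HDM change in wild type, 0.36, did not pass (adjusted p = 0.0651), although it passed in 5 of 16 alternatives (0.36 to 0.48, lowest adjusted p = 0.0339). Without replicate 1 of PBS-treated wild type the higher level in Irf3-deficient cells was not called (adjusted p = 0.169). Trib3, a pseudokinase that inhibits ATF4 and CHOP, stayed between 7.68 and 7.91 in all 7 arrays. Ddit4, whose product REDD1 inhibits mTORC1, stayed between 9.04 and 9.40, and neither passed in any comparison.

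**Figure D2:**
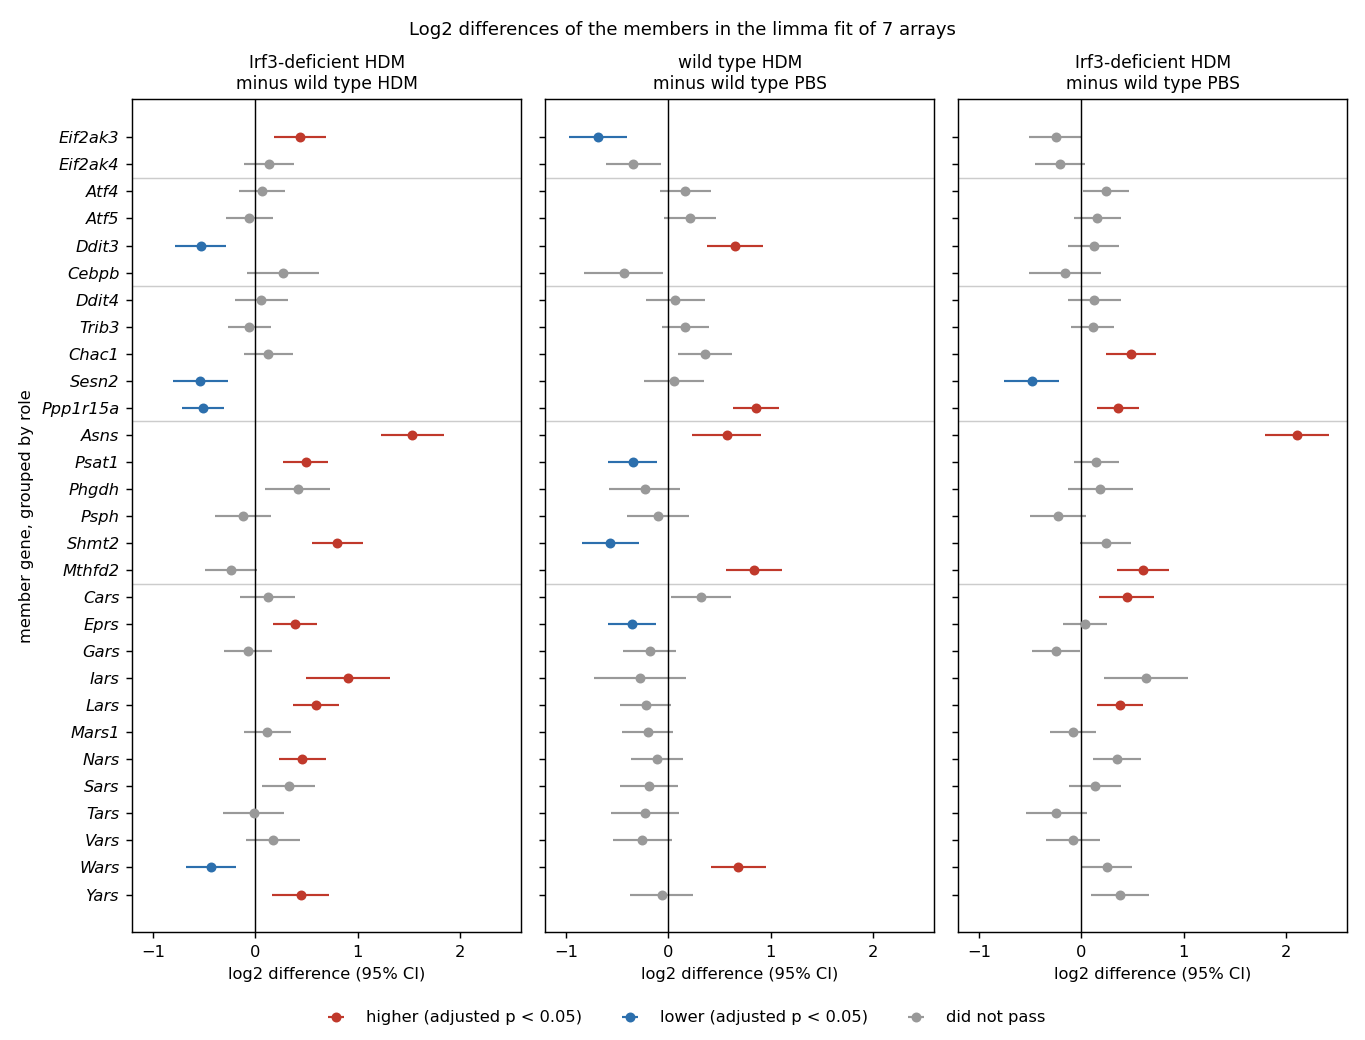
Log2 differences of the 29 members (rows, grouped by role) with 95% confidence intervals, in 3 comparisons: treated Irf3-deficient minus treated wild type (left), treated minus PBS-treated wild type (middle) and treated Irf3-deficient minus PBS-treated wild type (right). Red and blue points passed at an adjusted p below 0.05 as higher or lower, and grey points did not pass; on the left 9 are red and 4 blue.

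Asns, the gene of asparagine synthetase, which makes asparagine from aspartate and glutamine, had the largest difference of any member. Its log2 level was 10.10, 10.32 and 10.36 in Irf3-deficient arrays, against 8.84 and 8.61 in HDM-treated wild type and 7.93 and 8.37 in PBS-treated wild type. The 3 groups did not overlap, and the Irf3-deficient arrays stood above all 4 wild type arrays. Asns was 2.90-fold higher in treated Irf3-deficient than in treated wild type cells (95% CI 2.34 to 3.59, adjusted p = 1.02e-05) and 4.31-fold higher than in PBS-treated wild type (3.48 to 5.34, adjusted p = 3.72e-06). Both calls held in all 16 alternatives tried, including the removal of any 1 array. HDM raised it 1.49-fold in wild type (1.18 to 1.88, adjusted p = 0.0228), a call that ended without replicate 1 of PBS-treated wild type (0.35, adjusted p = 0.219) or without replicate 1 of HDM-treated wild type.

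The C/EBP-ATF element, TGATGNAA, is the sequence that ATF4 and a C/EBP partner are known to bind together, and Asns is a textbook example of a gene that carries it. RefSeq's promoter windows (GRCm38.p6, 250 bases before to 50 after the start site) were searched on both strands, and 24 of the 29 members had a window. Wars, Cars, Vars, Lars and Nars had no window and were not searched. These members had 27 windows, of which 7 held the element, each of another gene, whereas 3.97% of all 32851 windows held it. The upstream part of the Asns window is shown because this gene has the largest difference. It spans chr6:7693210-7693459, reads on the minus strand, and has the element in capitals, 23 to 16 bases before the start site.
Asns: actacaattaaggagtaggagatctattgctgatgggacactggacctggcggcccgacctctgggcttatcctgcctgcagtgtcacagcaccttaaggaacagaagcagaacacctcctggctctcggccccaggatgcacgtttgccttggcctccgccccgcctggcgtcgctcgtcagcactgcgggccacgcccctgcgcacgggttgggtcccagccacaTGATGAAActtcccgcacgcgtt

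To compare the matches, 30 bases around each are given on the strand that spells TGATGNAA, with the element in capitals and the bases from the start site at which it begins. These are Iars (chr13:49682126-49682155, minus strand, at 8), Yars (chr4:129189895-129189924, plus strand, at 4), Gars (chr6:55037960-55037989, minus strand, at -30), Tars (chr15:11399655-11399684, plus strand, at -15), Chac1 (chr2:119351038-119351067, minus strand, at -193) and Trib3 (chr2:152344028-152344057, plus strand, at 15).
Iars: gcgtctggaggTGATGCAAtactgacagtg
Yars: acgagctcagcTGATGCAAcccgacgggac
Gars: cgcccggtgcaTGATGAAAtagcgcagcca
Tars: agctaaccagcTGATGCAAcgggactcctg
Chac1: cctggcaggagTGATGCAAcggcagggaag
Trib3: ccccgcccggcTGATGTAAacctgagctaa
Iars, Yars, Tars and Chac1 share the 8 letters TGATGCAA, and Gars has those of Asns. Of these 7 members, Asns, Iars and Yars were higher in treated Irf3-deficient than in treated wild type cells. Gars, Tars, Chac1 and Trib3 did not pass, so members with the same 8 letters differed in their calls. Of the 17 members with a window and no match, 4 were higher and 3 lower. Of all genes, 10.7% were higher and 9% lower in that comparison. The median difference was 0.13 for the 7 members with the element and 0.12 for the 17 without it.

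The other motifs were searched in the same 27 windows, and their counts did not set the members apart from all windows. Wars, which had no window, was not searched. The interferon-stimulated response element, searched as GAAA, any 2 bases and GAAA, was found in 1 of the 27 windows, that of Ppp1r15a, where 3.44% of all windows hold it and 5 of 8 windowed genes of the interferon panel did. It lies at chr7:45526469-45526498 on the minus strand, begins at -220 from the start site, and is shown because Ppp1r15a rose with HDM and was lower without Irf3.
Ppp1r15a: aaaataaaagGAAAGGGAAAtggcacggta
The gamma-activated site TTCNNNGAA occurred in 2 of the 27 windows, those of Eif2ak3 and Shmt2, where 8.3% of all windows hold it. No match to the ER stress element was found in the 27, and 0.119% of all windows hold it. No member window held more than 1 of these matches, so none overlapped another, and a match of letters is a description, not a bound site.

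Of the 6 amino acid and one-carbon enzymes, 3 were higher (50%, against 10.7% of all genes) and 0 lower (against 9%) between the treated genotypes. There 4 had an unadjusted p under 0.05 in limma. HDM in wild type raised 2 (33.3%, against 8.35%) and lowered 2 (33.3%, against 9.23%). Shmt2, the mitochondrial enzyme that splits serine into glycine and a one-carbon unit, was at 9.98, 9.89 and 10.12 in Irf3-deficient arrays, 9.16 and 9.22 in HDM-treated wild type and 9.64 and 9.87 in PBS-treated wild type. The treated wild type arrays were lowest, and no groups overlapped. Between Irf3-deficient and PBS-treated wild type cells the difference, 0.24, did not pass (adjusted p = 0.245). HDM lowered Shmt2 in wild type by a log2 change of -0.56 ± 0.13 (SE, adjusted p = 0.0076; adjusted p = 0.0762 without replicate 2 of PBS-treated wild type), and it was higher in Irf3-deficient cells by 0.80 ± 0.12 (adjusted p = 0.000338). Psat1, an aminotransferase of serine synthesis, followed the same order, at 9.36, 9.22 and 9.28 in Irf3-deficient arrays, 8.81 and 8.78 in HDM-treated wild type and 9.15 and 9.14 in PBS-treated wild type. In Irf3-deficient cells it was 0.15 above PBS-treated wild type, which did not pass (adjusted p = 0.452). It had a log2 difference of 0.49 ± 0.10 between treated Irf3-deficient and treated wild type cells (adjusted p = 0.00396), and by -0.35 ± 0.11 for HDM in wild type (adjusted p = 0.0493), a call that held in only 6 of 16 alternatives.

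Mthfd2, which oxidises the one-carbon unit that SHMT2 releases, moved the other way from Shmt2 in wild type. Its level was 11.32, 11.09 and 11.35 in Irf3-deficient arrays, 11.61 and 11.37 in HDM-treated wild type and 10.56 and 10.74 in PBS-treated wild type. Both treated groups stood above the PBS-treated arrays. HDM raised Mthfd2 1.79-fold in wild type (95% CI 1.48 to 2.16, adjusted p = 0.000522), and Irf3-deficient cells were 1.52-fold above PBS-treated wild type (1.27 to 1.81, adjusted p = 0.00556; adjusted p = 0.0917 without replicate 1 of PBS-treated wild type). The treated genotypes differed by -0.24 (95% CI -0.49 to 0.02, adjusted p = 0.206). Phgdh, the enzyme that starts serine synthesis, was at 8.04 to 8.26 in Irf3-deficient arrays, 7.99 and 7.49 in HDM-treated wild type and 7.84 and 8.09 in PBS-treated wild type, and did not pass between the genotypes (0.42, adjusted p = 0.0652) except without replicate 1 of HDM-treated wild type (0.66, adjusted p = 0.00809). A brighter probeset shared by Phgdh and Gm6756 differed by only 0.10 between the treated genotypes. It cannot be assigned to either gene and did not stand for Phgdh in the fit. Psph, the phosphatase that completes the pathway, lay between 7.52 and 8.05 in all arrays and did not pass. These last genes are among the dimmer members, at the 51.0th and 47.5th percentiles of all genes.

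**Figure D3:**
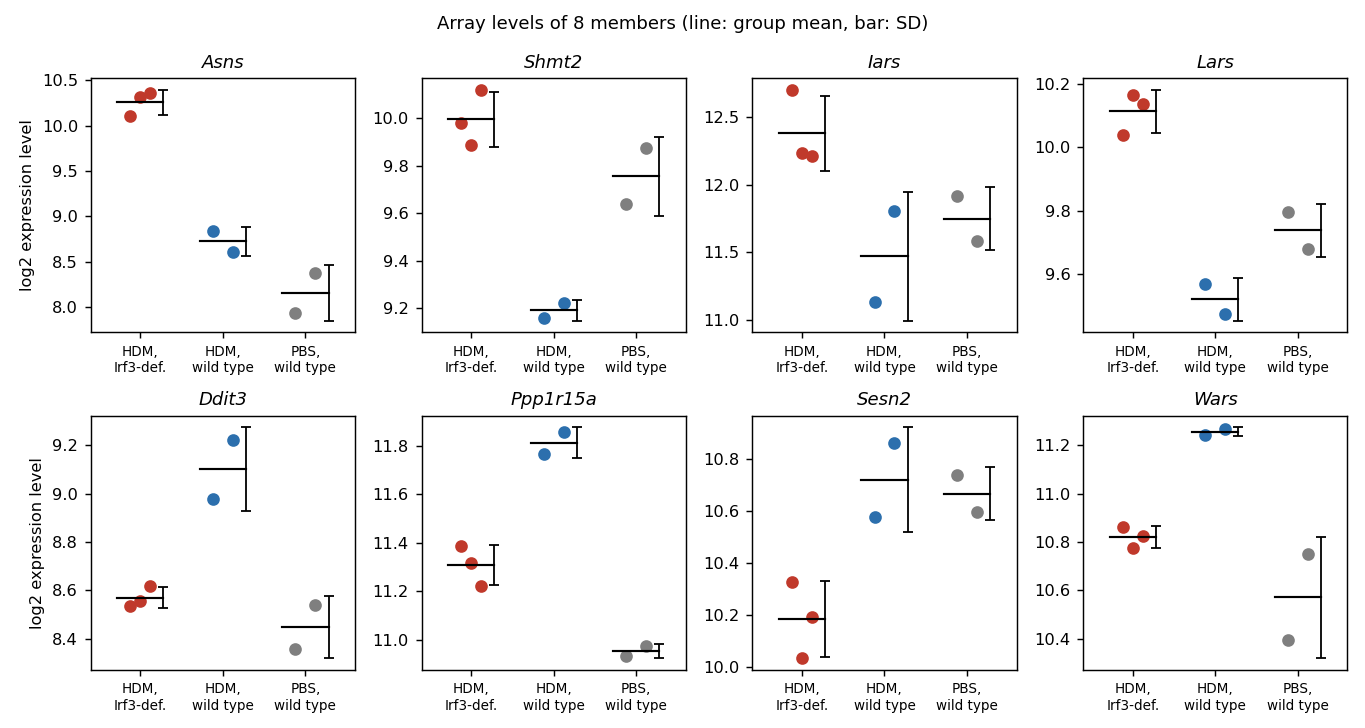
Log2 level of 8 members in every array (points) by group, with the group mean (line) and SD (bar); treated Irf3-deficient is on the left, treated wild type in the middle and PBS-treated wild type on the right of each panel. In the upper row the Irf3-deficient arrays lie above all treated wild type arrays, and in the lower row below them.

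Cytosolic tRNA synthetases join each amino acid to its tRNA. Of 12 measured members 5 were higher in treated Irf3-deficient than in treated wild type cells (41.7%, against 10.7% of all genes), 1 was lower (8.33%, against 9%) and 6 did not pass, with a median difference of 0.25 beside 0.00219 for all genes. The isoleucyl gene Iars led, at 12.70, 12.23 and 12.21 in Irf3-deficient arrays, 11.14 and 11.81 in HDM-treated wild type and 11.91 and 11.58 in PBS-treated wild type. It was 1.88-fold higher in Irf3-deficient cells (95% CI 1.41 to 2.50, adjusted p = 0.00425), with an SD of 0.475 in the treated wild type pair, and the log2 difference ranged from 0.57 to 1.24 over the alternatives. A dimmer probeset of Iars gave 11.47, 11.29 and 11.45 in Irf3-deficient arrays, 10.74 and 10.76 in HDM-treated wild type and 11.15 and 11.12 in PBS-treated wild type, a difference of 0.65 between the treated genotypes. Both probesets thus placed the Irf3-deficient arrays above the treated wild type arrays, with a smaller difference in the dimmer one (0.65, against 0.91). The locus that each of them covers was not in the annotation used.

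Lars, the leucyl gene, lay at 10.04, 10.17 and 10.14 in Irf3-deficient arrays, 9.57 and 9.47 in HDM-treated wild type and 9.80 and 9.68 in PBS-treated wild type, so that the 3 groups did not overlap. The treated genotypes differed by 0.60 ± 0.10 (adjusted p = 0.00132, called in all 16 alternatives), and the difference from PBS-treated wild type was 0.38 ± 0.10 (adjusted p = 0.0361, called in 10 of 16). Nars, the asparaginyl gene, whose product uses the amino acid that ASNS makes, had levels of 11.54, 11.75 and 11.78 in Irf3-deficient arrays, against 11.34 and 11.12 in HDM-treated wild type and 11.33 and 11.35 in PBS-treated wild type. It had a log2 difference of 0.46 ± 0.11 between treated Irf3-deficient and treated wild type cells (adjusted p = 0.00805, called in 14 of 16). Yars, for tyrosine, was at 9.65, 9.73 and 9.73 in Irf3-deficient arrays, 9.43 and 9.09 in HDM-treated wild type and 9.18 and 9.47 in PBS-treated wild type, a difference of 0.44 ± 0.13 between the treated genotypes (adjusted p = 0.0286, called in 11 of 16). Eprs, which charges glutamate and proline tRNAs, was at 10.57, 10.61 and 10.67 in Irf3-deficient arrays, 10.19 and 10.27 in HDM-treated wild type and 10.64 and 10.52 in PBS-treated wild type. Its treated wild type arrays were the low ones, with a change of -0.35 for HDM in wild type (adjusted p = 0.0419, called in 7 of 16 alternatives) and 0.39 between the treated genotypes (adjusted p = 0.0142, called in 13 of 16).

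Wars, which charges tryptophan tRNA and is known to be induced by interferon, moved the other way from these 5 synthetases. Its level was 10.86, 10.77 and 10.82 in Irf3-deficient arrays, 11.24 and 11.27 in HDM-treated wild type and 10.39 and 10.75 in PBS-treated wild type. The treated wild type arrays were highest and the Irf3-deficient arrays lay between the wild type groups. Between Irf3-deficient and PBS-treated wild type cells the difference, 0.25, did not pass (adjusted p = 0.212). HDM raised Wars 1.61-fold in wild type (95% CI 1.33 to 1.94, adjusted p = 0.0019), where it was the single synthetase to rise, and it was 1.35-fold lower in Irf3-deficient cells (1.14 to 1.60, adjusted p = 0.016). The lower level in Irf3-deficient cells lost its call without either treated wild type array or without replicate 2 of the Irf3-deficient group, with adjusted p up to 0.0837, while its size stayed between -0.46 and -0.41. In wild type 10 of the 12 synthetases had a difference below 0 after HDM, but of these Eprs alone passed.

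The other 6 synthetases did not pass between the treated genotypes. Sars, for serine, came nearest at 0.33 (adjusted p = 0.0756; 0.38 and adjusted p = 0.0471 without replicate 1 of the Irf3-deficient group), and Vars, Cars, Mars1, Tars and Gars lay between -0.07 and 0.17. For Gars, the glycyl gene, the 95% CI of that difference ran from -0.30 to 0.17, and for Tars, the threonyl gene, from -0.32 to 0.28. Cars, for cysteine, was at 9.47, 9.61 and 9.83 in Irf3-deficient arrays, 9.60 and 9.44 in HDM-treated wild type and 9.22 and 9.17 in PBS-treated wild type. Both treated groups stood above the PBS-treated arrays, and the Irf3-deficient difference from PBS-treated wild type was 0.44 (adjusted p = 0.0364, called in 11 of 16 alternatives). The probeset shared by Aars and Exosc6 read 9.74, 9.77 and 9.86 in Irf3-deficient arrays, 10.14 and 10.18 in HDM-treated wild type and 9.66 and 9.59 in PBS-treated wild type; it cannot be assigned to either gene.

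Of 9 other measured cytosolic synthetases and scaffold genes, 2 were higher (22.2%, against 10.7% of all genes) and 1 lower (11.1%, against 9%) between the treated genotypes. The arginyl gene Rars differed by 0.59 (adjusted p = 0.00387), the scaffold gene Eef1e1 by 0.44 and the histidyl gene Hars by -0.41. In wild type 0 of the 9 passed with limma, where 17.6% of all genes did, and 1 had an unadjusted p under 0.05. Of 16 mitochondrial synthetases, 4 were higher (25%, against 10.7%) and 0 lower (against 9%) between the treated genotypes. Their median was 0.20, beside 0.00219 for all genes. Nars2, the mitochondrial asparaginyl gene, led, with mean levels of 8.84 ± 0.107 in Irf3-deficient (SD, n = 3), 7.82 ± 0.256 in HDM-treated wild type and 8.35 ± 0.0285 in PBS-treated wild type arrays (SD, n = 2 each), which did not overlap. The treated genotypes differed by 1.02 ± 0.12 (adjusted p = 9.17e-05). Wars2 and Yars2 followed at 0.68 and 0.60. The mitochondrial tryptophanyl gene was thus higher where the cytosolic one, Wars, was lower. Xpot, which exports tRNA from the nucleus, was at 10.05, 9.91 and 9.92 in Irf3-deficient arrays, 9.09 and 9.17 in HDM-treated wild type and 9.97 and 9.70 in PBS-treated wild type, a fall of -0.71 with HDM in wild type (adjusted p = 0.00156) and a difference of 0.83 between the treated genotypes (adjusted p = 0.000246).

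Amino acid transporters linked to ATF4 gave 2 of 9 higher (22.2%, against 10.7% of all genes) and 0 lower (against 9%) between the treated genotypes. After HDM in wild type 3 were higher (33.3%, against 8.35%) and 1 lower (11.1%, against 9.23%). In Irf3-deficient against PBS-treated wild type cells 5 were higher (55.6%, against 5.89%) and 1 lower (11.1%, against 4.91%). Slc7a11, the cystine importer, was higher in each comparison. Its level was 11.75, 11.92 and 12.42 in Irf3-deficient arrays, 11.02 and 11.13 in HDM-treated wild type and 10.24 and 10.38 in PBS-treated wild type, with no overlap. HDM raised it by 0.77 ± 0.17 in wild type (adjusted p = 0.00798), and the treated genotypes differed by 0.96 ± 0.16 (adjusted p = 0.000942). Slc38a2, a carrier of small neutral amino acids, was the other gene higher between the treated genotypes, at 0.29 (adjusted p = 0.0465). Against PBS-treated wild type, the arginine carrier Slc7a1 was higher by 0.76 and the leucine carrier Slc7a5 by 0.66, while the glutamine carrier Slc1a5 was lower, at -0.88. HDM in wild type also lowered Slc1a5, at -0.80 (adjusted p = 0.000293). Slc7a3, another arginine carrier, rose by 0.36 in wild type, but its mean level was low, at percentile 18.3 of all genes.

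The remaining companion genes moved in both directions. Of 24 other ATF4-linked genes, 5 were higher (20.8%, against 10.7% of all genes) and 1 lower (4.17%, against 9%) between the treated genotypes. With HDM in wild type 1 rose (4.17%, against 8.35%) and 4 fell (16.7%, against 9.23%). In Irf3-deficient against PBS-treated wild type cells 2 were higher (8.33%, against 5.89%) and 3 lower (12.5%, against 4.91%). Tnfrsf10b, a death receptor gene that CHOP is known to induce, was at 9.18, 8.95 and 8.75 in Irf3-deficient arrays, 7.69 and 7.88 in HDM-treated wild type and 7.87 and 7.90 in PBS-treated wild type. It was higher in Irf3-deficient cells by 1.18 ± 0.13 (adjusted p = 4.46e-05), where Ddit3 was lower. Ero1a, an oxidase of the endoplasmic reticulum, differed by 0.65 between the treated genotypes, and Got1, the cytosolic aspartate aminotransferase, by -0.83 (adjusted p = 7.31e-05) after a rise of 0.49 with HDM in wild type. Pck2 and Vldlr fell in wild type at -0.50 and -0.36, and Vldlr was dim, at percentile 26.9 of all genes. Against PBS-treated wild type, the stress factor gene Nupr1 was higher by 0.54 and Tsc22d3, a glucocorticoid-induced gene, lower at -0.54. Of 8 further one-carbon and serine enzymes, 2 were higher (25%, against 10.7%) and 0 lower (against 9%) between the treated genotypes, Mthfd1l at 0.61 and Mthfd2l at 0.42. The cytosolic enzyme gene Mthfd1 was the 1 that fell in wild type (12.5%, against 9.23%), at -0.62. Mthfd2l was the 1 that was higher against PBS-treated wild type (12.5%, against 5.89%). Macrophage and monocyte markers moved in the same comparisons. Between the treated genotypes 8 of 10 were higher (80%, against 10.7%) and 2 lower (20%, against 9%). With HDM in wild type 1 was higher (10%, against 8.35%) and 9 were lower (90%, against 9.23%).

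**Figure D4:**
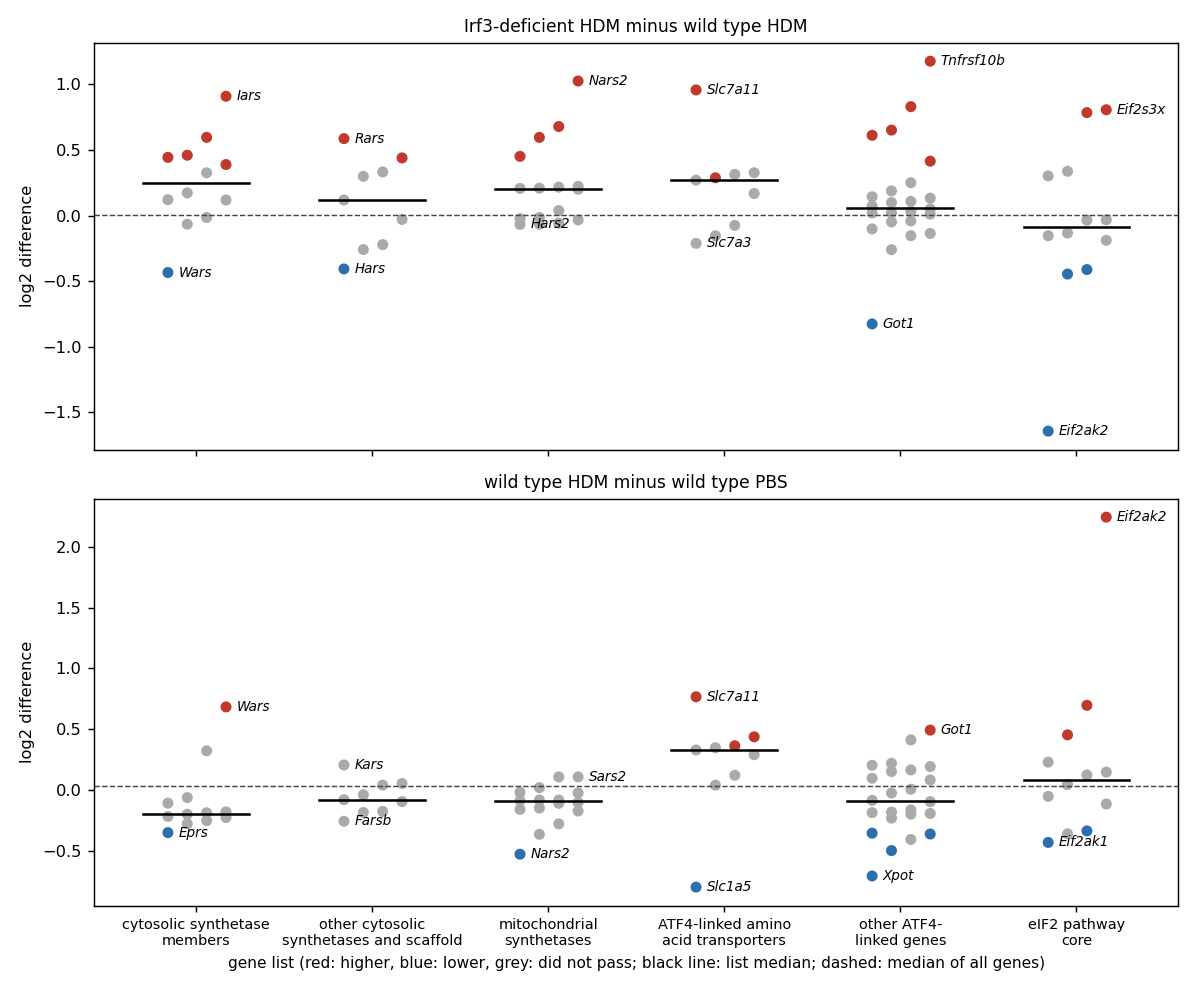
Log2 differences of the cytosolic synthetase members and of 5 companion lists, for treated Irf3-deficient minus treated wild type (upper panel) and treated minus PBS-treated wild type (lower panel). Each point is 1 gene, red where higher and blue where lower at an adjusted p below 0.05; black lines are list medians, and the dashed line is the median of all genes. Wars and Eif2ak2 are low in the upper panel and high in the lower one.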

How the data were processed

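The deposited log2 values give 1 level per probeset; per the labels the platform was Mouse Gene 1.0 ST (Affymetrix). Per the submitters' processing notes, the tools were R 3.2.1, oligo and RMA, with no roles given. RMA normalises between arrays, so a change shared by most transcripts would not be seen. The medians of single arrays were 7.60 to 7.69. Neither detection calls nor batches were used, and the number of arrays limits the precision. The 7 arrays were grouped by their titles. Of 35556 probesets, 21789 carried 1 symbol, 1621 several and 12146 none; symbols were updated through Entrez identifiers (19856 of 19938 genes matched RefSeq). limma 3.58.1 under R 4.3.3 (lmFit, eBayes with an intensity trend) left 4 residual and 8.34 prior degrees of freedom; tests were two-sided. Separate mice are pooled in each array, and p-values measure the spread between these pools.

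Members and lists were chosen with earlier results of these data known. All members are named, whatever their values, with Irf3 and, of each companion list, up to 3 called genes per direction with the smallest p (2 in the interferon panel). The marker genes, Aars, Exosc6 and Gm6756 are named outside that rule. Both motif strands were searched. The fit was tested on simulated data before use, and the share of false calls there was somewhat above the one the threshold allows. Alternatives changed the variance model, scaling, filter, probeset choice or replicate block, or left out 1 array.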

Additional observations from a re-analysis of the deposited data

How the results depend on the processing

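Over 16 alternatives, none reversed a call. Of 1440 alternative values of single genes 1358 kept direction and side of the threshold, 63 lost a call, 19 gained one, and in 16 a value not called in either setting changed sign. With 1 array left out in turn, genes called ranged over 2562 to 3906 for treated Irf3-deficient against treated wild type (3932 with all arrays), 2333 to 3724 for HDM in wild type (3505) and 749 to 2359 for Irf3-deficient against PBS-treated wild type (2153). Members called ranged over 8 to 14 (13), 6 to 9 (9) and 1 to 9 (7), and over 11 to 16 (16) in the F test. Over 78 companion genes outside the interferon panel, a count added after seeing the data, the ranges were 14 to 21 (22), 7 to 16 (16) and 8 to 24 (23). The lowest counts came without replicate 2 of HDM-treated wild type in the first comparison and without replicate 1 of PBS-treated wild type in the last; the companion count of 7 for HDM in wild type came without either of these, and the cause was not tested. Deviations of same-numbered arrays correlated at -0.23 to 0.18. In a group of 2 arrays the deviations mirror each other, so these values can neither show nor exclude a pairing. With the replicate block, Irf3-deficient against PBS-treated wild type had 1426 genes (7.15%), 3 members (10.3%) and 14 companion genes (17.9%) called. No scaling moved the median of all genes by over 0.1. Groups of 2 and 3 arrays cannot reach an exact permutation p below 0.1, and 2 against 2 not below 0.333, so the calls rest on a spread shared across genes.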

Other observations

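Marker lists of other lung cells also moved with the groups, and their part in the results above was not tested. Of 5 epithelial and endothelial genes, 1 was higher (20%, against 10.7% of all genes) and 1 lower (20%, against 9%) in treated Irf3-deficient than in treated wild type cells. With HDM in wild type 0 rose (against 8.35%) and 4 fell (80%, against 9.23%). Epcam, which some dendritic cells also express, was at 10.79, 10.78 and 10.83 in Irf3-deficient arrays, 9.23 and 8.80 in HDM-treated wild type and 9.96 and 9.96 in PBS-treated wild type, so that the groups did not overlap. Of 5 alveolar macrophage markers, 0 passed between the treated genotypes, where 19.7% of all genes did. Of these 5, 0 had an unadjusted p under 0.05 in limma there. HDM in wild type raised 2 (40%, against 8.35%) and lowered 1 (20%, against 9.23%), with Fabp4 at 1.25, Car4 at 0.63 and Siglecf at -0.43. Against PBS-treated wild type, Fabp4 was higher by 1.43 and Car4 by 0.91 in Irf3-deficient cells, and Car4 lay at the 91.1th percentile of all genes. Of 5 cDC1 markers, 0 were higher (against 10.7% of all genes) and 2 lower (40%, against 9%) between the treated genotypes. Cd8a was at 8.57, 8.41 and 8.36 in Irf3-deficient arrays. Its levels were 9.48 and 9.45 in HDM-treated wild type and 7.93 and 8.17 in PBS-treated wild type. Among macrophage and monocyte markers Fcgr1, which encodes CD64, was at 8.99, 9.14 and 9.27 in Irf3-deficient arrays, 10.61 and 10.99 in HDM-treated wild type and 8.72 and 9.30 in PBS-treated wild type, opposite in order to Cd163, at 8.31, 8.40 and 8.40, against 7.52 and 7.25 and 9.30 and 9.22 in the same groups. These genes were chosen for mention after their values were seen.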
